A study of Homo sapiens with 6 samples.

Results

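The genes described here are GATB, GATC and QRSL1, which encode the 3 subunits of the mitochondrial amidotransferase GatCAB, and EARS2, which encodes the mitochondrial glutamyl-tRNA synthetase. These 4 genes are 4 of the 57773 genes in the count table. GATB was picked because its counts were higher in sgZNF507 than in EV in these same libraries, and the other 3 were added for their shared role. The difference of GATB between sgZNF507 and the other groups is therefore given as a description with no test.

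RNA was sequenced from HEK293 cells, a human embryonic kidney line, transiently transfected with PX459, a plasmid that carries Cas9 and a guide. Plasmids with 4 guides to ZNF146 gave the sgZNF146 group, plasmids with 4 guides to ZNF507 gave sgZNF507, and the empty plasmid gave EV. All 3 groups received the plasmid, 36 h of puromycin selection and about 2 weeks of outgrowth, and each group has 2 libraries prepared as biological duplicates. The cells were pools and not clones, and the question was whether loss of either LINE-1-binding zinc finger protein alters the transcriptome of a somatic cell line.

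Library totals ranged from 22724439 to 28524025 counts. ZNF507 fell in sgZNF507, with 48.0 CPM (the count scaled to a common total and normalized for library composition) against 73.7 CPM in EV. On the log2 scale the difference was -0.62 ± 0.07 (SE), with an adjusted p of 0.00195 (quasi-likelihood test of edgeR, Benjamini-Hochberg adjustment over all genes). ZNF146 had 101 CPM in sgZNF146 and 110 CPM in EV, which did not pass the same test (adjusted p = 1.00). Both sgZNF146 libraries lay below both EV libraries, as did both sgZNF507 libraries with a mean of 94.9 CPM. In 28.6% of all genes tested, the sgZNF146 and EV libraries did not overlap. The paper reports that western blots hardly detected either protein in its targeted cells, and that reads often carried indels at the guide sites. The mRNA levels given here do not measure protein or indels. NEFM, PAX2 and VIM, which HEK293 cells are known to express, had at least 139 counts in every library. PTPRC, ALB, COL1A2, CDH5 and HBB, markers of leukocytes, hepatocytes, fibroblasts, endothelium and erythroid cells, had at most 16. NEFL and LHX1 were also planned as HEK293 markers but are not reported here.

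Mitochondria translate their own mRNAs and need glutamine attached to their tRNA-Gln, but they are not known to carry a glutaminyl-tRNA synthetase of their own. Instead, EARS2 attaches glutamate to tRNA-Gln as well as to tRNA-Glu, and GatCAB then converts the glutamate on tRNA-Gln to glutamine, taking the amide from free glutamine. QRSL1, also called GatA, releases ammonia from glutamine. GATB activates the misacylated tRNA and completes the transfer, and the small subunit GATC holds the complex together. Inherited loss of each subunit is known to cause a mitochondrial cardiomyopathy, and loss of EARS2 a leukoencephalopathy.

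On GRCh37 (hg19), the build of the counted reads, GATB (ENSG00000059691) spans bases 152591656 to 152682159 of chromosome 4 (minus strand), with 13 exons and 557 codons in its canonical transcript. GATC (ENSG00000257218) spans bases 120884247 to 120901552 of chromosome 12 (plus strand) and has 4 exons and 136 codons. QRSL1 (ENSG00000130348) spans bases 107077453 to 107116292 of chromosome 6 (plus strand) and has 11 exons and 528 codons. EARS2 (ENSG00000103356) spans bases 23532075 to 23569052 of chromosome 16 (minus strand) and has 9 exons and 523 codons. All counts are over exons of the whole gene.

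The start regions of the member that differed, GATB, and of GATC and EARS2, which did not pass the test, are shown to let their letters be compared. The windows come from RefSeq on GRCh38.p14, a later build than that of the counts, and hold 250 bases before and 50 after the start site. RefSeq windows were found for 4 of 4 members. Capitals mark the palindromic E-box CACGTG, the ETS-type site CCGGAAG (or CTTCCGG on the other strand) and TCACNTGA (or TCANGTGA on the other strand), which can contain the E-box. The last of these was added to the search after the GATB sequence was seen.
GATB (chr4:151760958-151761257, minus strand): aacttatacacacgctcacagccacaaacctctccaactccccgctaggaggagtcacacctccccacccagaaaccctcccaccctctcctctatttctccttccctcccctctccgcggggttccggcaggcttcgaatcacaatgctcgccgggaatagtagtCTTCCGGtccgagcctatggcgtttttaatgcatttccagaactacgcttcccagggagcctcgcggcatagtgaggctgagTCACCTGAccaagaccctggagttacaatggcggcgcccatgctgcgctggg
GATC (chr12:120446194-120446493, plus strand): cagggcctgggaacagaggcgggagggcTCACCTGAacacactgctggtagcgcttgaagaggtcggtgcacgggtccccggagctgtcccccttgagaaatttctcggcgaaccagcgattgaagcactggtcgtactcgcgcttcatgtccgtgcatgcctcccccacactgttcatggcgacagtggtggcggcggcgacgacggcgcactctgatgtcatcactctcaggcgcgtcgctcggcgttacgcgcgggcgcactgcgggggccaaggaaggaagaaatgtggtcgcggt
EARS2 (chr16:23557301-23557600, minus strand): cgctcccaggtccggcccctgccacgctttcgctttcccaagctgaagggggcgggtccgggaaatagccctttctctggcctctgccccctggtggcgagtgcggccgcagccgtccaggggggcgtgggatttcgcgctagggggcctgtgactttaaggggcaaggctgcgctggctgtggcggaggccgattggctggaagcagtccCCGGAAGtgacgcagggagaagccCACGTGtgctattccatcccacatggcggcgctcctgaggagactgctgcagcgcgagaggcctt

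Of 35116 RefSeq windows of this length, 7.26% hold CACGTG on either strand, 10.3% hold CCGGAAG and 3.79% hold TCACNTGA. EARS2 holds CACGTG from -15 to -10, counted from the start site, and CCGGAAG from -39 to -33. A second EARS2 window in RefSeq, whose start lies 25 bases away, overlaps the first and holds the same sites. Counted from that start, CCGGAAG lies from -14 to -8 and CACGTG from 11 to 16, after the start site. GATB holds CTTCCGG from -84 to -78 and TCACCTGA from -2 to 6, across its start site. GATC holds TCACCTGA from -222 to -215, and QRSL1 holds none of these letters. On GRCh37, the opposite-strand gene TRIAP1 starts 60 bases before GATC, so the GATC match lies beyond the start of TRIAP1. The palindromic NRF1-type site, present in 1.24% of windows, was found in none of the 4 genes. The letters TCACCTGA were thus shared by GATB and GATC at different distances from the start, and a match describes these letters and not binding. Whether any of these letters bears on the counts was not tested.

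GATB had 52.0 and 56.3 CPM in the EV libraries, 58.2 and 56.0 CPM in sgZNF146 and 92.0 and 98.5 CPM in sgZNF507. Both sgZNF507 libraries lay above the other 4, which lay between 52.0 and 58.2 CPM. The mean was 95.3 ± 4.56 CPM in sgZNF507, 54.1 ± 3.04 CPM in EV and 57.1 ± 1.55 CPM in sgZNF146 (SD, n = 2 each). These values rest on 1294 to 2853 counts per library. Against EV, the log2 fold change in sgZNF507 was 0.82 ± 0.07 (SE), a fold of 1.76, and against sgZNF146 it was 0.74 ± 0.07 (SE), a fold of 1.67. As this contrast chose the gene, no test is given, and 0.182% of the 22010 genes tested passed an adjusted p of 0.05 in this contrast. Both contrasts share the sgZNF507 libraries, which did not overlap with EV in 29.3% and with sgZNF146 in 32.1% of all genes tested. Leaving out any 1 library kept the value of GATB against EV between 0.76 and 0.87.

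In sgZNF146 against EV, GATB had a log2 fold change of 0.08 (95% interval -0.08 to 0.24), and the ranges of the groups overlapped. The adjusted p was 1.00 in edgeR's quasi-likelihood test, in which 0% of the genes tested passed (2.43% had an unadjusted p under 0.05). The 2 contrasts share the EV libraries.

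**Figure D1:**
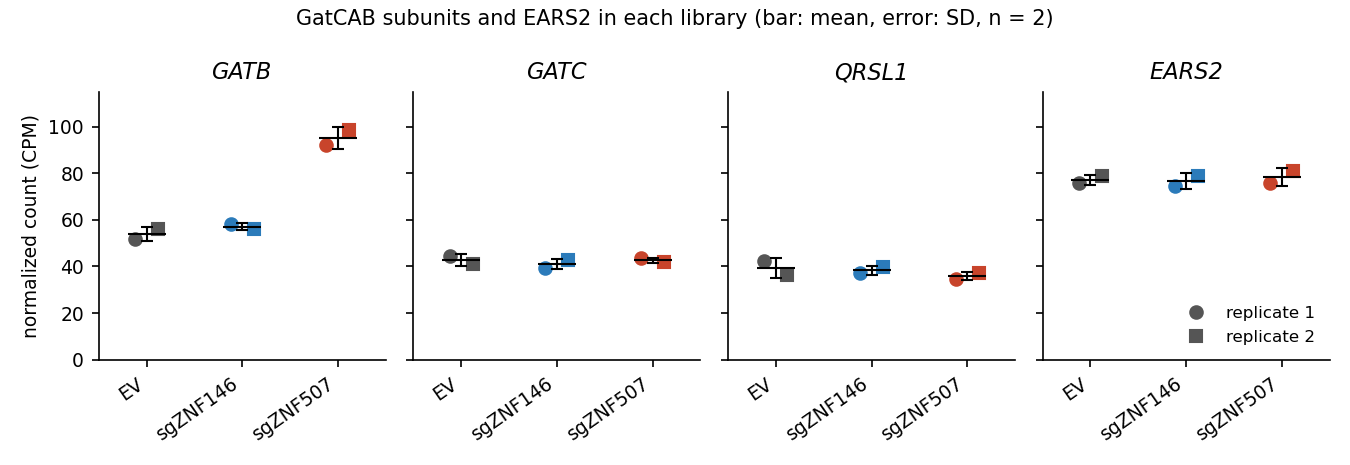
Normalized counts (CPM, linear axis from 0) of GATB, GATC, QRSL1 and EARS2 in each library, with replicate 1 as circles, replicate 2 as squares, the mean as a bar and the SD (n = 2) as an error bar. GATB lies between 52.0 and 58.2 CPM in EV and sgZNF146 and at 92.0 and 98.5 CPM in sgZNF507, while the groups of the other 3 genes overlap.

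Neither of the other subunits of the complex passed the threshold in any contrast. GATC, the linker subunit, had 44.7 and 41.1 CPM in EV, 39.5 and 42.6 CPM in sgZNF146 and 43.5 and 42.0 CPM in sgZNF507. The sgZNF507 libraries fell between those of EV. The log2 fold change in sgZNF507 against EV was -0.01 (95% interval -0.19 to 0.17, adjusted p = 1.00, edgeR's quasi-likelihood test), so that folds above 1.13 or below 0.880 lay outside the interval. In sgZNF146 against EV it was -0.06 (95% interval -0.24 to 0.12, adjusted p = 1.00, same test).

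QRSL1, the subunit that takes ammonia from glutamine, had 42.5 and 36.5 CPM in EV, 36.999 and 39.6 CPM in sgZNF146 and 34.8 and 37.3 CPM in sgZNF507. The EV libraries differed more from each other than the group means did. The log2 fold change was -0.13 in sgZNF507 (95% interval -0.33 to 0.07, adjusted p = 1.00, edgeR's quasi-likelihood test) and -0.04 in sgZNF146 (95% interval -0.25 to 0.16, adjusted p = 1.00, same test), both against EV. The sgZNF507 value was -0.013 without EV replicate 1 and -0.24 without EV replicate 2.

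EARS2, which supplies the glutamylated tRNA to the complex, had 75.8 and 78.7 CPM in EV, 74.4 and 79.1 CPM in sgZNF146 and 75.7 and 81.2 CPM in sgZNF507. Replicate 1 was the lower library in each group and the 3 groups overlapped. Its log2 fold change was 0.02 in sgZNF507 (95% interval -0.13 to 0.17, adjusted p = 1.00, edgeR's quasi-likelihood test) and -0.01 in sgZNF146 (95% interval -0.16 to 0.14, adjusted p = 1.00, same test). In sgZNF507 against sgZNF146, GATC, QRSL1 and EARS2 had log2 fold changes of 0.06, -0.09 and 0.03, none past the threshold, where 0.173% of all genes tested passed. In a fit blocked on replicate, none of the 3 passed the threshold in any contrast, where 0.55% of all genes passed in sgZNF507 against EV, 0.15% in sgZNF146 against EV and 0.891% in sgZNF507 against sgZNF146.

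**Figure D2:**
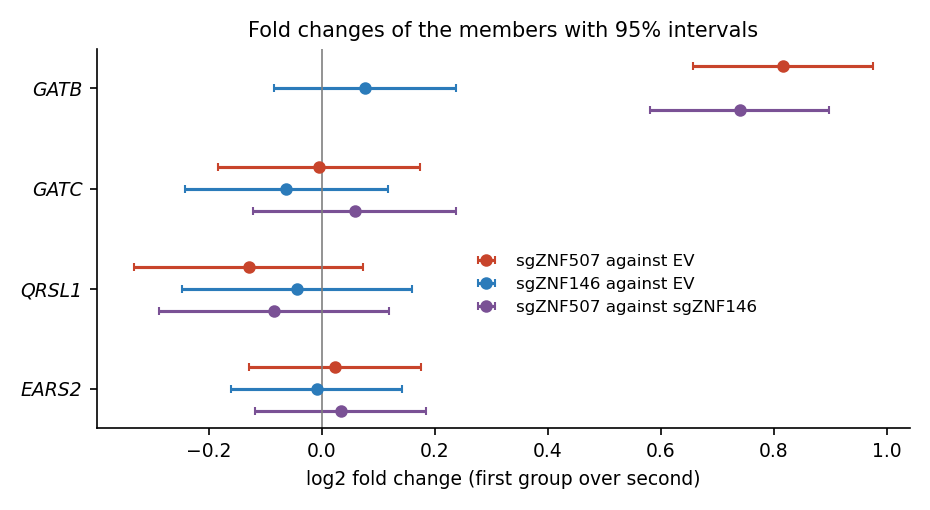
Log2 fold changes of the 4 genes in the 3 contrasts (points) with 95% intervals from the fit across all genes (bars). GATB in sgZNF507 lies at 0.82 against EV and 0.74 against sgZNF146. Its bars in these contrasts are no test, since the gene was chosen on these libraries. The intervals of GATC, QRSL1 and EARS2, and of GATB in sgZNF146 against EV, include 0.

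The ratios between subunit mRNAs are given as a description, since GATB was chosen on these libraries. GATB had 1.22 and 1.54 times the CPM of QRSL1 in EV, 1.57 and 1.41 times in sgZNF146 and 2.64 and 2.64 times in sgZNF507. Over GATC, the ratio was 1.27 ± 0.146 in EV, 1.39 ± 0.114 in sgZNF146 and 2.23 ± 0.161 in sgZNF507 (SD, n = 2 each). The ratio of GATC to QRSL1, which does not involve GATB, was 1.09 ± 0.0536 in EV, 1.07 ± 0.00722 in sgZNF146 and 1.19 ± 0.0874 in sgZNF507, with overlapping libraries in sgZNF507 and EV. GATB took 39.7% of the counts of the 3 subunits in EV, 41.9% in sgZNF146 and 54.7% in sgZNF507. They are not molar ratios, because the genes differ in length.

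Per kb of annotated exon, EARS2 was the highest in EV with 11.1 ± 0.298 CPM per kb, followed by GATC with 9.72 ± 0.574, QRSL1 with 7.25 ± 0.784 and GATB with 4.61 ± 0.259 (SD, n = 2 each). Neighbours in this order were further apart than their SDs. The order depends on the length used. The union of all annotated GATB exons spans 11.7 kb and its canonical transcript 2.37 kb, and with canonical lengths GATB had the highest value, 22.9 CPM per kb, with EARS2 at 14.9, GATC at 10.1 and QRSL1 at 9.62. GATC and QRSL1 then did not differ beyond their SDs. Which subunit mRNA was the most abundant was not settled by these gene counts, as they do not tell transcripts apart.

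Adjacent genes were examined because counts can be shared between overlapping genes, and the strand setting of the counting is not given in the sources used here. The nearest tested neighbour of GATB, FHIP1A, lies on the opposite strand and its annotated end abuts that of GATB, with 0 bases between them. FHIP1A had 21.0 and 18.7 CPM in EV and 23.1 and 18.3 CPM in sgZNF507 (log2 fold change 0.06 ± 0.12, SE). Whether reads were shared between the pair was not tested. FBXW7, a substrate receptor of a ubiquitin ligase on the other side of GATB, had 65.4 CPM in EV and 65.6 CPM in sgZNF507. An antisense lncRNA within GATB, ENSG00000251455, averaged 0.567 CPM. Of the 6 tested protein-coding genes that start within 1 Mb of GATB, 0 passed the threshold in sgZNF507 against EV. In this contrast, 0.182% of all genes tested passed. The log2 fold changes of the 6 genes ran from -0.01 to 0.07.

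**Figure D3:**
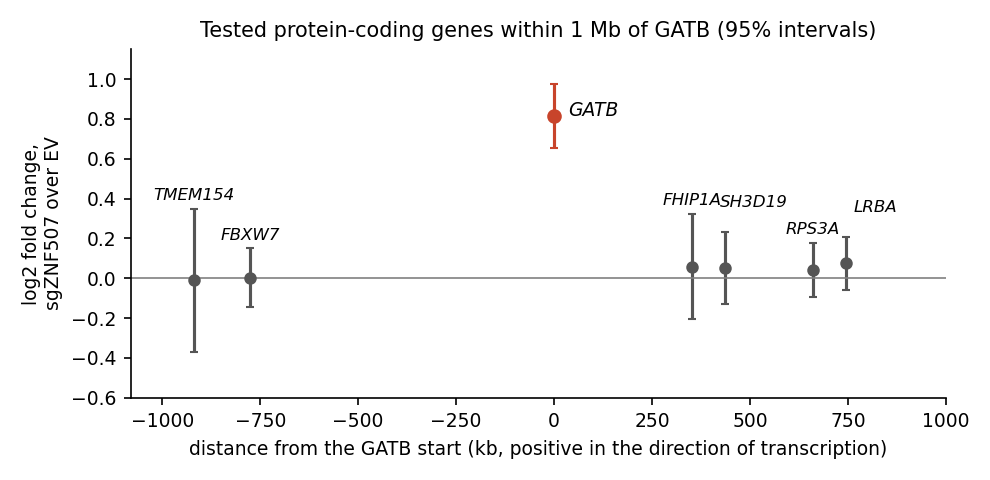
Log2 fold change in sgZNF507 over EV (points, 95% intervals as bars) of GATB and of the 6 tested protein-coding genes within 1 Mb of its start, against distance in kb. GATB lies at 0.82 and its neighbours between -0.01 and 0.07. The bar of GATB is no test, since this contrast chose the gene.

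GATC and QRSL1 each share a start region with a gene on the opposite strand. TRIAP1, a mitochondrial lipid transfer factor, starts 60 bases from GATC and had 26.0 and 25.4 CPM in EV and 24.2 and 22.3 CPM in sgZNF507 (log2 fold change -0.15 ± 0.09, SE). RTN4IP1, a mitochondrial oxidoreductase, starts 80 bases from QRSL1 and had 11.2 CPM in both EV libraries and 12.02 and 11.1 CPM in sgZNF507. Neither gene passed the threshold (adjusted p = 1.00 each, edgeR's quasi-likelihood test). The far end of GATC overlaps SRSF9 on the opposite strand, and EARS2 overlaps UBFD1 at its start on the opposite strand and GGA2 at its end on the same strand. These genes had log2 fold changes of -0.02, 0.03 and 0.00 in sgZNF507. On the same strand, the protein-coding gene ENSG00000111780 overlaps GATC (mean 0.025 CPM, not among the genes tested). The pseudogene RPL21P65 lies within QRSL1 on its strand (mean 0.621 CPM, log2 fold change in sgZNF507 against EV -0.53 ± 0.38, SE). The opposite-strand pseudogenes RPL31P52 in GATC and SUB1P4 in EARS2 averaged 0.0259 and 0 CPM. Reads in all these overlaps may have been left out or assigned to either gene, which was not tested. The remaining nearest genes without overlap were DYNLL1 for GATC, MTRES1 for QRSL1, and COG7 and NDUFAB1 for EARS2. Their log2 fold changes in sgZNF507 against EV were -0.02, -0.31, 0.17 and 0.01, none past the threshold. Both sgZNF507 libraries lay below both EV libraries for TRIAP1 and MTRES1 and above them for COG7. These groups did not overlap in 29.3% of all genes tested. Within 1 Mb of GATC, QRSL1 and EARS2, 28, 8 and 12 protein-coding genes were tested. Of these, 0 passed in sgZNF507 against EV, where 0.182% of all genes tested passed.

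The wider pathway was read from gene lists chosen by function. In the main test, 0.182% of all genes tested passed in sgZNF507 against EV and 0% in sgZNF146 against EV. A count of 0 in a short list is near that share. Of the 19 synthetases that charge mitochondrial tRNAs, EARS2 among them, 19 were tested and 0 passed the threshold in sgZNF507 against EV (edgeR's quasi-likelihood test). None of the 19 had an unadjusted p under 0.05, against 3.39% of all genes tested. Their log2 fold changes ran from -0.07 for GARS1, which also charges tRNA-Gly in the cytosol, to 0.15, with a median of 0.02 beside 0.00 for all genes. AARS2, the alanyl-tRNA synthetase with the lowest p of the list, had a log2 fold change of 0.08 ± 0.06 (SE, adjusted p = 1.00, same test). In sgZNF146 against EV, 0 of 19 passed and the median was -0.01.

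Of 24 genes for the processing and modification of mitochondrial tRNAs, 0 passed in sgZNF507 against EV, where 0.182% of all genes passed. TRMT1, which dimethylates a guanosine in tRNAs of cytosol and mitochondria, had the lowest p. It had 92.7 and 102 CPM in EV, 91.0 and 97.7 CPM in sgZNF146 and 119 and 128 CPM in sgZNF507, so that both sgZNF507 libraries lay above the other 4. In 29.3% of all genes tested, the sgZNF507 and EV libraries did not overlap. The log2 fold change of TRMT1 was 0.34 ± 0.07 (SE, adjusted p = 0.170, edgeR's quasi-likelihood test). It passed in the fit blocked on replicate with an adjusted p of 2.2e-05, where 0.55% of all genes passed. Its adjusted p ranged from 2.2e-05 to 0.996 over 14 alternative settings, of which 3 gave a call. Without EV replicate 1 the adjusted p was 0.996. ELAC2, the most highly counted gene of this list and the nuclease that trims the end of precursor tRNAs, had 178 CPM in EV and 179 CPM in sgZNF507.

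Of 13 translation factors of the mitochondrial ribosome, 0 passed in sgZNF507 against EV, where 0.182% of all genes passed. Their median log2 fold change was -0.02. GUF1, a GTPase related to elongation factors, had the lowest p, with 48.8 ± 1.46 CPM in EV and 41.7 ± 3.24 CPM in sgZNF507 (SD, n = 2 each; log2 fold change -0.23 ± 0.08, SE, adjusted p = 1.00, edgeR's quasi-likelihood test). TUFM, the elongation factor that delivers charged tRNAs, had 342 CPM in EV and 344 CPM in sgZNF507.

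Glutamine is the nitrogen donor of GatCAB. Of 14 genes for the supply of glutamine and glutamate, 0 passed in either contrast with EV, with medians of 0.00 in sgZNF507 and -0.03 in sgZNF146. Of all genes tested, 0.182% passed in sgZNF507 against EV and 0% in sgZNF146 against EV. GLUL, which makes glutamine, had a log2 fold change of -0.07 ± 0.06 (SE) in sgZNF507, and SLC1A5, a glutamine transporter of the plasma membrane, of -0.01 ± 0.07 (SE). Of 10 other enzymes that take nitrogen from glutamine, 0 passed and the log2 fold changes in sgZNF507 ran from -0.08 to 0.13. CAD, which begins pyrimidine synthesis, had 394 CPM in EV and 386 CPM in sgZNF507. GFPT2, of the hexosamine pathway, had the lowest p (log2 fold change 0.13 ± 0.12, SE).

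The cytosol charges tRNA-Gln directly with QARS1 and tRNA-Glu with EPRS1. QARS1 had 178 ± 1.40 CPM in EV and 185 ± 3.29 CPM in sgZNF507, and EPRS1 had 207 ± 2.53 and 199 ± 24.4 CPM (SD, n = 2 each). Neither gene passed the threshold (adjusted p = 1.00 each, edgeR's quasi-likelihood test).

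**Figure D4:**
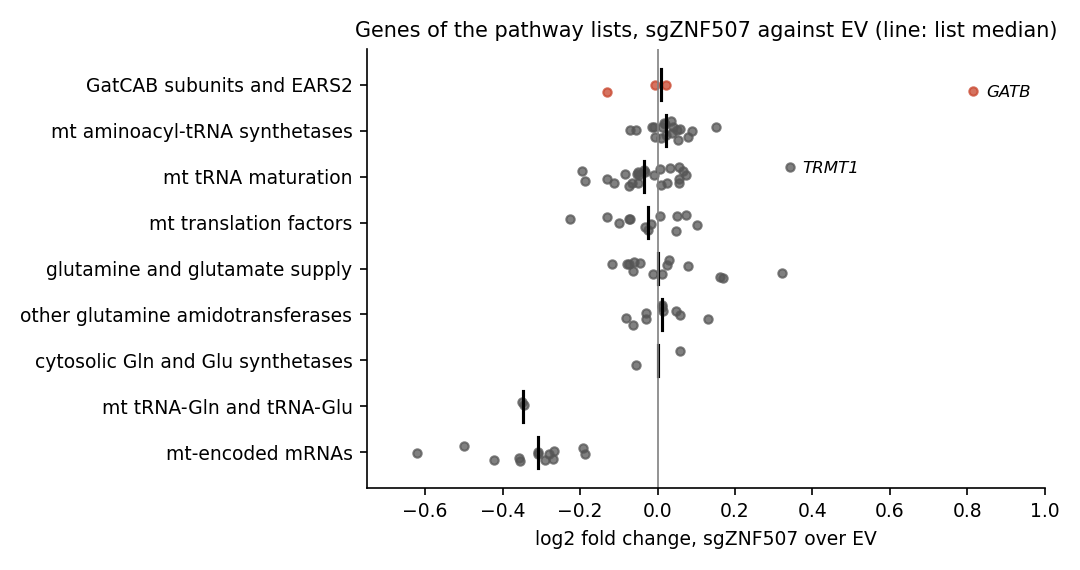
Log2 fold change in sgZNF507 over EV of each tested gene (points) of the pathway lists, with the median of each list as a line. GATB lies at 0.82 and TRMT1 at 0.34, while the mitochondrial synthetases lie between -0.07 and 0.15.

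In sgZNF146 against EV, 0 genes of these lists passed, and 0 of the mitochondrial transcripts that follow, where 0% of all genes tested passed. The tRNAs that EARS2 charges are encoded by MT-TQ (tRNA-Gln) and MT-TE (tRNA-Glu) on the mitochondrial genome. MT-TQ had 99 and 74 counts in EV, 69 and 73 in sgZNF146 and 46 and 91 in sgZNF507, and its groups overlapped. MT-TE had 177 and 220 counts in EV, 206 and 204 in sgZNF146 and 126 and 183 in sgZNF507. In CPM, MT-TE was 7.53 ± 0.599 in EV and 5.89 ± 0.601 in sgZNF507 (SD, n = 2 each), which gave a log2 difference of -0.35 ± 0.14 (SE, adjusted p = 1.00, edgeR's quasi-likelihood test). The counts do not tell charged from uncharged tRNA, or mature tRNA from longer precursors. The paper cleaned the RNA with RNeasy Mini kits, and how much mature tRNA remained was not tested. These values are therefore not taken as levels of mature tRNA.

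The tRNAs serve the translation of the mRNAs that the mitochondrial genome encodes. Of 13 mRNAs of the mitochondrial genome, 13 had a negative log2 fold change in sgZNF507 against EV, with a median of -0.31. In edgeR's quasi-likelihood test, 0 passed the threshold (lowest adjusted p = 0.0796, for MT-ND4L), where 0.182% of all genes passed. All 13 had an unadjusted p under 0.05 in this test, beside 3.39% of all genes tested. These mRNAs come from the same genome and the same libraries and can vary together, so they are not 13 independent results. Blocked on replicate, 11 passed, all lower, where 0.55% of all genes passed. MT-ND4, the most highly counted of them, had 3776 CPM in EV and 3140 CPM in sgZNF507. The mitochondrial rRNA MT-RNR1 differed between groups and also between the sgZNF507 libraries. It had 944 and 50.9 CPM in sgZNF507, 133 and 158 CPM in sgZNF146 and 1550 and 1673 CPM in EV. The part of this rRNA difference in the values of mitochondrial transcripts was not tested.

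The genes whose profile over the 6 libraries was most like that of GATB were found by the smallest root mean square difference in log2 CPM after each gene was centred on its mean. The first and second were the lncRNAs NEUROG2-AS1 and DMXL1-DT, with differences of 0.0511 and 0.0527, but these had at most 20 counts in any library. The next were RBM19, a factor of ribosomal RNA processing (0.0710, r = 0.991), VPS11, a core subunit of the lysosomal tethering complexes (0.0884, r = 0.976), and SUMF1, which activates sulfatases (0.0903, r = 0.970). RBM19 had 128 ± 5.32 CPM in EV and 206 ± 4.35 CPM in sgZNF507, VPS11 had 38.9 ± 0.965 and 61.3 ± 2.27 CPM, and SUMF1 had 8.66 ± 0.435 and 15.4 ± 0.428 CPM (SD, n = 2 each). Among its partners, EARS2 ranked 5110, GATC 6896 and QRSL1 15025 of 22009 genes in likeness, with r = 0.334, 0.0840 and -0.608. These correlations are over 6 libraries that fall into 3 groups and are a description. The 5 genes were picked by their likeness to GATB, so their shared pattern follows from that choice.

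**Figure D5:**
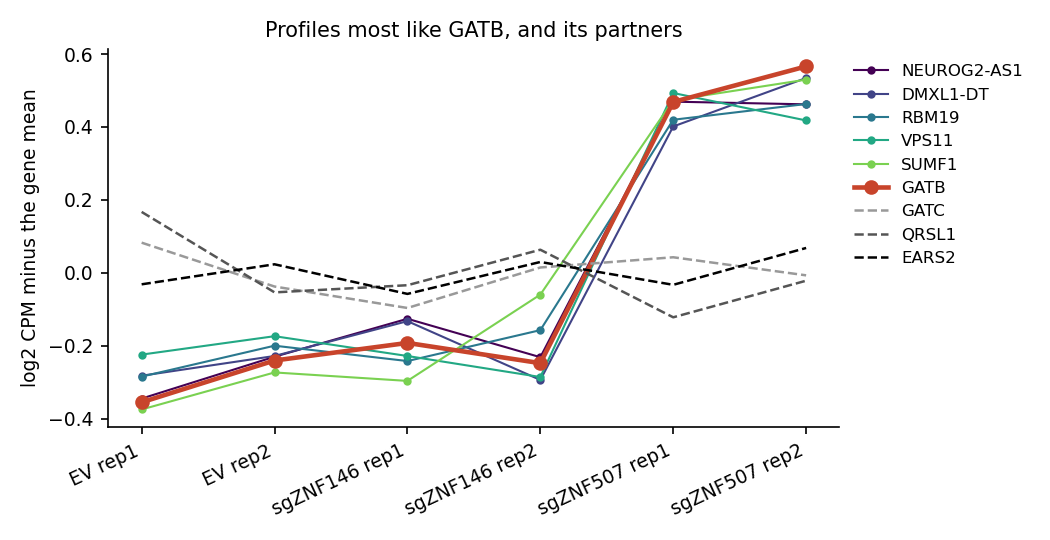
Log2 CPM in each library minus the mean of the gene, for GATB (thick line), the 5 genes most like it (thin lines) and its partners GATC, QRSL1 and EARS2 (dashed). The 5 genes, chosen for this likeness, lie with GATB above their mean in both sgZNF507 libraries and below it in the other 4. The partners, which were not chosen by profile, stay near 0.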

How the data were processed

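The authors clipped reads with the Fastx Toolkit, removed ribosomal reads with Bowtie, aligned the rest with TopHat2 (hg19, first-strand setting) and used featureCounts to count reads in Ensembl genes. The deposited values are raw counts of 6 libraries, without pooling. The libraries were prepared with ribosome depletion, and removal of ribosomal RNA or reads can differ between libraries. Samples were grouped by their titles. GENCODE on GRCh37, which can differ from the gene models counted, gave symbols and coordinates for 96.1% of identifiers.

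The main test was that of edgeR 4.0.16 in R 4.3.3 (filterByExpr on the 3 groups, TMM, glmQLFit and glmQLFTest on all 6 libraries), which left 22010 genes, with Benjamini-Hochberg adjustment over all of them and a threshold of 0.05. Each SE is the log2 fold change divided by the square root of F, an approximation. DESeq2 1.42.0 served as another tool. The fits were checked on simulated data, in which every gene had the same spread and no replicate effect was simulated. That check does not cover effects that differ between libraries. Figures were drawn with matplotlib 3.10.9.

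The members, lists and motifs were chosen with earlier results of these data known. Genes named are the members, their neighbours and overlapping genes, each list's gene with the lowest p and with the highest count, list genes past the threshold, and the 5 genes most like GATB. UBFD1, GGA2 and SRSF9 overlap members, and MT-RNR1 is named after its values were seen. Deviations of same-numbered libraries from their group means correlated across genes with r = 0.138, 0.176 and 0.145 for the 3 pairs of groups, and the numbers, taken from the labels, were used as a block in an alternative fit. Protein sequences, ChIP-seq peaks and LINE-1 expression were not analysed here.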

Additional observations from a re-analysis of the deposited data

How the results depend on the processing

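Over 14 alternative settings, GATB stayed positive in both contrasts with sgZNF507, and GATC, QRSL1 and EARS2 passed the threshold in none, with adjusted p between 0.734 and 1.00 (edgeR or DESeq2). Their directions turned where values lay near 0. GATC in sgZNF507 against EV was 0.000293 with upper-quartile normalization, 0.000748 without a filter, and 0.000111 and 0.000973 in DESeq2 with 6 and 4 libraries. Leaving out 1 library at a time gave log2 fold changes from -0.069 to 0.059 for GATC and from -0.018 to 0.070 for EARS2 in sgZNF507 against EV, from -0.16 to 0.068 for QRSL1 and from -0.055 to 0.033 for EARS2 in sgZNF146 against EV, and from -0.0075 to 0.080 for EARS2 in sgZNF507 against sgZNF146.

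The number of genes past the threshold was 40 in sgZNF507 against EV, 101 without a filter and 121 with the replicate block. In sgZNF146 against EV it was 0, against 19 without a filter, 33 with the replicate block and 3 each in edgeR and DESeq2 on 4 libraries. In sgZNF507 against sgZNF146 it was 38, against 112 and 196. With a library left out it ranged from 12 to 44, from 0 to 3 and from 13 to 37, and was lowest without EV replicate 1 and sgZNF146 replicate 1 in the contrasts of sgZNF507. Of the tRNA maturation genes, 1 passed without a filter, in DESeq2 on 6 libraries and with the replicate block in both contrasts of sgZNF507, and also in DESeq2 on 4 libraries against sgZNF146. Of the mitochondrial mRNAs, 12, 3, 6 and 11 passed against EV and 7, 3, 2 and 7 against sgZNF146 without a filter, in DESeq2 on 6 and 4 libraries and with the replicate block, and 0 to 2 with a library left out. The block changed no call of GATB in sgZNF146 or of its partners in any contrast. The causes of these shifts were not tested. Levels per kb in EV moved to 8.26 for GATB, 9.62 for QRSL1 and 14.9 for EARS2 with the longest transcript, and to 22.9, 9.62 and 14.9 with the canonical transcript, a setting added after the data were seen. With 2 libraries a group, any difference inside the intervals given remained possible. The intervals are not adjusted for the number of genes tested, so a difference wider than these can also miss the threshold.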
